A study of Rattus norvegicus with 6 samples.

Results

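The miR-181 family of rat lung was examined across all 6 small RNA libraries of a lung ischemia-reperfusion (IR) experiment. A miRNA was taken as a member by its name alone, miR-181a, miR-181b, miR-181c or miR-181d with any arm or gene copy, and 10 of the 693 listed miRNAs met this rule. The members are 4 miRNAs from the 5p arm and 6 from the 3p arm of the hairpins. Male Sprague-Dawley rats of 7 to 8 weeks were anesthetized with urethane, intubated, ventilated and opened at the left chest in both groups. In the IR group (3 libraries) clamping of the left hilum lasted 45 min and was followed by reperfusion, and in the sham group (3 libraries, labelled control) the vessels were not clamped. For the time of reperfusion and the lobe sampled, the sources used here give no value. The samples of a group are described as biological replicates and were treated as separate animals. The question was which miRNAs differ between lungs after IR and sham-operated lungs.

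MicroRNAs of the miR-181 family repress messenger RNAs through their 5′ end, the seed. The family is best known from lymphocytes, where miR-181a raises the sensitivity of developing T cells to antigen by repressing phosphatases of the T cell receptor pathway. In endothelium, miR-181b is known to repress an importin that carries NF-κB into the nucleus and so to restrain inflammatory gene expression. The 6 miR-181 genes lie in pairs, and the 5p arm is the usual guide strand, while the 3p arm is usually degraded. Because both miR-181a genes give the same 5p sequence, only the 3p arms tell which of them was transcribed.

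The mature sequences are shown because the family is defined by its seed and because the members differ by so few bases that reads could be assigned to the wrong name. They were taken from RefSeq on rat build GRCr8 and were found for 9 of the 10 members. miR-181b-2-3p was not among them. The seed, bases 2 to 8, is in capitals, and the prefix rno for the rat is left out of most names below.
rno-miR-181a-5p: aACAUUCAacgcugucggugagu
rno-miR-181b-5p: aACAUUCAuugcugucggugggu
rno-miR-181c-5p: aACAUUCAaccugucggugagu
rno-miR-181d-5p: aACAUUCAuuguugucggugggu
rno-miR-181a-1-3p: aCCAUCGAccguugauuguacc
rno-miR-181c-3p: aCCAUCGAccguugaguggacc
rno-miR-181a-2-3p: aCCACCAAccguugacugu
rno-miR-181b-1-3p: cUCACUGAacaaugaaugcaa
rno-miR-181d-3p: cCACCGGGggaugaauguca

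All 4 5p members carry the same seed, and no other mature name among the 693 in the RefSeq table has it. Counted from 1 at the 5′ end, with the base of the first-named miRNA first, miR-181a-5p and miR-181b-5p differ by A9U, C10U and A21G. miR-181b-5p and miR-181d-5p differ by C12U alone. miR-181c-5p shares its first 10 and its last 12 bases with miR-181a-5p and is 1 base shorter (22 against 23). In the 3p arm miR-181a-1-3p and miR-181c-3p share a seed and differ by U16G and U19G. The other 3p seeds, those of miR-181a-2-3p, miR-181b-1-3p and miR-181d-3p, each belong to 1 name. The sources used here do not give how reads that match several names were treated, so that the division of reads between miR-181b-5p and miR-181d-5p, or between miR-181a-5p and miR-181c-5p, is uncertain.

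In GRCr8, Mir181a-1 and Mir181b1 lie on chromosome 13 with 61 nt between them, Mir181a2 and Mir181b2 on chromosome 3 with 986 nt between them, and Mir181c and Mir181d on chromosome 19 with 77 nt between them, all on the plus strand. miR-181a-5p is at chr13:52037081-52037103 and again at chr3:43025601-43025623, and miR-181a-1-3p follows at chr13:52037121-52037142 and miR-181a-2-3p at chr3:43025646-43025664. miR-181b-5p is at chr13:52037263-52037285 and miR-181b-1-3p at chr13:52037303-52037323. No position at Mir181b2 was found for any member. The chromosome 19 pair holds miR-181c-5p at chr19:40888314-40888335, miR-181c-3p at chr19:40888353-40888374, miR-181d-5p at chr19:40888484-40888506 and miR-181d-3p at chr19:40888526-40888545. The deposited counts carry names only, and the sources used here do not give the build behind them.

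The libraries held 3775663 to 11248166 miRNA reads. Levels are given as normalized CPM, the reads of a miRNA in each 1000000 reads of a library after its total was multiplied by its TMM scaling factor (0.867 in sham replicate 3, 0.929 in IR replicate 2 and 1.05 to 1.06 in the other 4). In sham replicate 3 miR-21-5p took 24.2% of the reads against 9.66% to 13.5% in the other 5 libraries. Endothelial miR-126a-3p and epithelial miR-200a-3p were abundant in every library, while miR-208a-3p of heart and miR-124-3p of neurons had at most 1 and 6 reads in a library, miR-122-5p of liver at most 69 and miR-9a-5p of brain at most 500. The reads have no molecular identifiers, so that limits from reads cover counting error only, and 3 reads correspond to a deposited TPM of 0.267 to 0.795.

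miR-181 was a well-expressed family of the lung that was carried almost wholly by miR-181a-5p. The family took 1.46%, 1.04% and 1.33% of all miRNA reads in sham replicates 1, 2 and 3, and 0.897%, 0.900% and 0.950% in IR replicates 1, 2 and 3. Within the family miR-181a-5p made up 87.9% to 89.9% of the reads of a library, and it ranked 17th of the 693 listed miRNAs by its mean level. miR-181b-5p followed with 5.77% to 7.38% of the family's reads, miR-181a-1-3p with 1.60% to 2.21% and miR-181d-5p with 1.53% to 2.21%, while miR-181c-5p made up 0.482% to 0.803%. The shares of miR-181a-1-3p and miR-181d-5p lay in nearly the same range. miR-181a-1-3p had the larger share in every library but IR replicate 2 (1.60% against 2.21%). The remaining 3p arms, miR-181c-3p, miR-181a-2-3p and miR-181b-1-3p, were at 0.416% or less. At the bottom of the order miR-181b-2-3p had 12 reads over all 6 libraries and miR-181d-3p had 1 read, in sham replicate 1, so that the miR-181d hairpin was seen through its 5p arm. These levels compare reads per molecule with no term for length, and the ligation of adapters can favour one sequence over another.

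**Figure D1:**
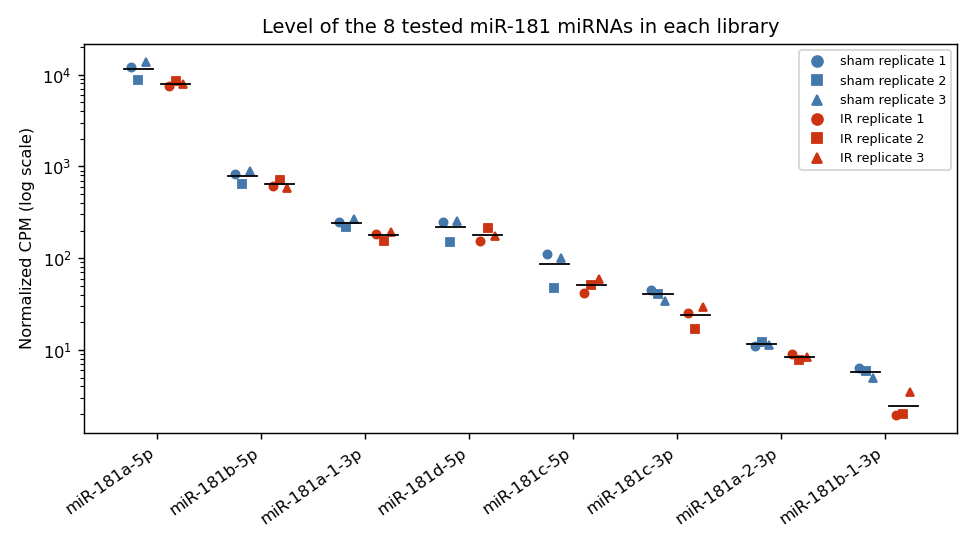
Normalized CPM (vertical axis, log scale) of the 8 tested miR-181 miRNAs in each of the 3 sham (blue) and 3 IR (red) libraries, with the marker shape giving the replicate and the black line the group mean. From left to right the sham means run from 11601 for miR-181a-5p to 5.76 for miR-181b-1-3p, and every IR mean is below its sham mean.

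After IR the miR-181 miRNAs lay below sham without passing the test. All 8 tested members had a negative log2 fold change, with a median of -0.50 (1.41-fold lower), where 214 of the 418 tested miRNAs were below 0 (51.2%) at a median of -0.01. In edgeR's quasi-likelihood (QL) test with adjustment over all 418, 0 of the 8 were called lower or higher at a threshold of 0.05, against 44 of all 418 (10.5%) in either direction and 11 (2.63%) lower. At an unadjusted p under 0.05 in the QL test, 5 of the 8 were lower, against 51 of 418 (12.2%). In 5 of the 8 every IR library was below every sham library, a separation in this direction found for 70 of the 418 (16.7%). The members are not independent of each other, since arms come from shared hairpins and pairs of genes. The members miR-181b-2-3p and miR-181d-3p had too few reads for the test.

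rno-miR-181a-5p, the main guide strand, stood at 12218, 8758 and 13826 normalized CPM in sham replicates 1, 2 and 3. It stood at 7494, 8522 and 7950 in IR replicates 1, 2 and 3. All IR libraries were below all sham libraries, but sham replicate 2 lay close to the highest IR library, and the groups differed in width, with an SD of 22.3% of the mean in sham and 6.45% in IR. Counting alone would give an SD of 0.308% and 0.463% of the mean, so that depth did not limit the comparison. The mean went from 11601 ± 2590 to 7989 ± 515 (SD, n = 3 each), a log2 fold change of -0.54 (standard error 0.18, 95% interval -0.95 to -0.12, edgeR QL adjusted p = 0.0963, range over 16 alternatives 0.0255 to 0.245). Without sham replicate 2 the value was -0.68 with an edgeR QL adjusted p of 0.0255, and without sham replicate 3 it was -0.40.

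rno-miR-181b-5p, the member studied in endothelium, had 832, 640 and 888 normalized CPM in sham replicates 1, 2 and 3 and 617, 715 and 585 in IR replicates 1, 2 and 3. Here the groups overlapped, as IR replicate 2 was above sham replicate 2. The log2 fold change was -0.30 (standard error 0.16, 95% interval -0.68 to 0.08, edgeR QL adjusted p = 0.283), an interval that holds both 0 and the value of miR-181a-5p. rno-miR-181d-5p, which differs from miR-181b-5p by 1 base, had the smallest change of the 8 tested members. It was at 245, 152 and 252 in the sham libraries and 154, 214 and 174 in the IR libraries, with overlap, and its log2 fold change was -0.26 (95% interval -0.79 to 0.28).

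rno-miR-181c-5p was at 110.1, 47.6 and 101 normalized CPM in sham replicates 1, 2 and 3 and 42.1, 51.6 and 59.2 in IR replicates 1, 2 and 3. Sham replicate 2 lay among the IR libraries, and the other sham libraries were well above them. The log2 fold change of -0.75 (standard error 0.32, edgeR QL adjusted p = 0.177) became -1.03 without sham replicate 2, with an edgeR QL adjusted p of 0.0311, and -0.54 without sham replicate 1. In all 4 5p members sham replicate 2 was the lowest of the sham libraries, and in miR-181d-5p it was below every IR library.

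**Figure D2:**
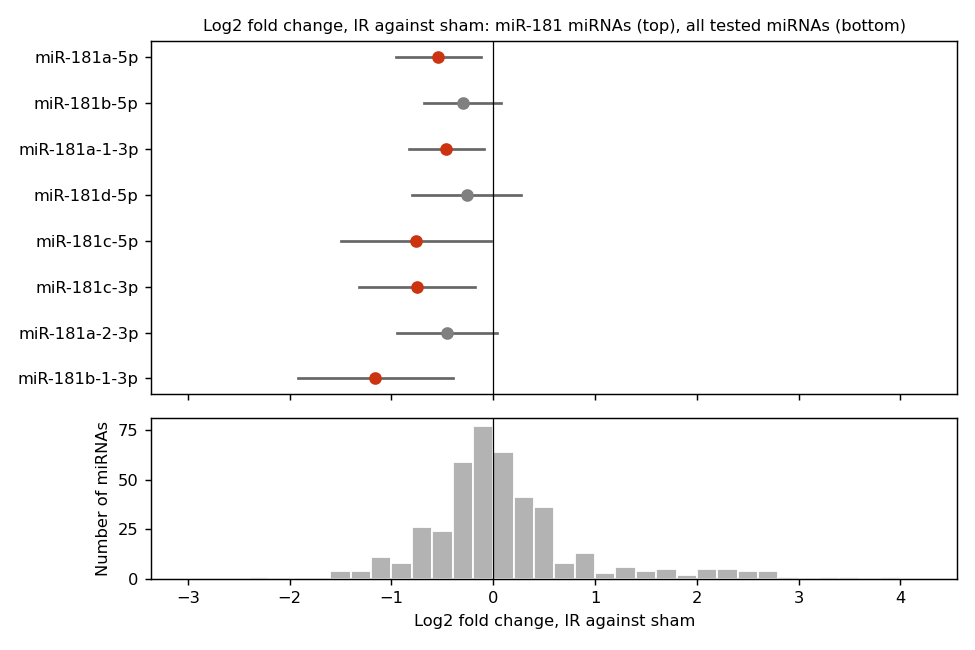
Top: difference in log2 level, IR minus sham (horizontal axis), of the 8 tested miR-181 miRNAs with the 95% interval from edgeR's quasi-likelihood test on 3 libraries per group; red points have an unadjusted p under 0.05 and grey points do not. Bottom: the same value for all 418 tested miRNAs as a histogram, centred near 0, in which the miR-181 points from -1.16 to -0.26 lie on the left side.

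Of the 3p arms, miR-181a-1-3p had a mean of 211 normalized CPM over the 6 libraries, near the 198 of miR-181d-5p. The other 3p arms were at 32.0 or less. All 4 tested 3p members had every IR library below every sham library, against 1 of the 4 5p members and 16.7% of all tested miRNAs. The 5p to 3p read ratios, given below, all overlapped between the groups. miR-181b-1-3p showed the largest fold of the 8 tested members, from 6.43, 5.94 and 4.93 normalized CPM in sham replicates 1, 2 and 3 to 1.96, 2.00 and 3.45 in IR replicates 1, 2 and 3. Its log2 fold change was -1.16 (standard error 0.33, 95% interval -1.92 to -0.40, edgeR QL adjusted p = 0.0647, range over 15 alternatives 0.0153 to 0.199), the 13th lowest of the 418 tested. It rests on 162 reads over the sham libraries and 61 over the IR libraries, with 7 reads in IR replicate 2, and counting alone would give an SD of 28.5% of the mean in IR, where 34.5% was seen.

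miR-181c-3p, from the chromosome 19 pair, had 45.4, 41.1 and 34.5 normalized CPM in sham replicates 1, 2 and 3 and 25.2, 16.8 and 29.2 in IR replicates 1, 2 and 3. Its log2 fold change of -0.75 (standard error 0.25, edgeR QL adjusted p = 0.0944) was close to the -0.75 of its 5p arm, at ranks 36 and 35 from the lowest. The estimates for both arms of the miR-181c hairpin were nearly the same, 1.68-fold lower for the 3p and 1.69-fold for the 5p arm, although neither passed the test. Their 95% intervals were wide, at -1.32 to -0.18 for the 3p and -1.49 to -0.02 for the 5p arm.

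The miR-181a genes share their 5p sequence and differ in their 3p arms. miR-181a-1-3p, from chromosome 13, was at 248, 218 and 265 normalized CPM in sham and 184, 155 and 192 after IR, a log2 fold change of -0.46 (standard error 0.16, 95% interval -0.83 to -0.09, edgeR QL adjusted p = 0.104). miR-181a-2-3p, from chromosome 3, was at 10.96, 12.2 and 11.3 in sham and 9.06, 7.70 and 8.34 after IR, with no overlap, a log2 fold change of -0.45 (standard error 0.21, edgeR QL adjusted p = 0.230). With 27 to 138 reads in a library, counting alone would give miR-181a-2-3p an SD of 9.77% of the mean in sham and 14.6% in IR, more than the 5.72% and 8.13% seen. The log2 fold changes of the 3p arms from both loci, and of the miR-181a-5p they share, lay between -0.54 and -0.45, with each estimate inside the intervals of the others.

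miR-181a-1-3p had a twin in the table. miR-3570, a miRNA annotated on the opposite strand at chr13:52037121-52037142, was listed with 1973, 2464 and 2368 reads in sham replicates 1, 2 and 3 and 1218, 546 and 2283 in IR replicates 1, 2 and 3. The reads of miR-181a-1-3p were 1972, 2463 and 2368 in the same sham libraries and 1218, 545 and 2280 in the IR libraries. The listings differed by 0 to 3 reads in a library, and the mature sequence of miR-3570 (gGUACAAUcaacggucgauggu) is the exact reverse complement of that of miR-181a-1-3p. In this table the reads of the 3p arm and of its antisense name therefore cannot be told apart. No other of the 8 members checked was listed within 5% or 2 reads of another name in every library. miR-3570 was named after its values were seen.

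The ratio of members within a library does not depend on the scaling of the libraries, and 11 such ratios were compared between the groups. miR-181a-5p had 14.7, 13.7 and 15.6 reads for each read of miR-181b-5p in sham replicates 1, 2 and 3 and 12.1, 11.9 and 13.6 in IR replicates 1, 2 and 3. All IR ratios were below all sham ratios, though sham replicate 2 and IR replicate 3 almost met. The difference in the mean log2 ratio was -0.22 (exact permutation test, two-sided, p = 0.1, the smallest that 3 against 3 allow; 0.55 after Benjamini-Hochberg adjustment over the 11 ratios). The ratio of miR-181a-5p to miR-181d-5p was likewise lower, at 49.9, 57.8 and 54.9 in sham and 48.6, 39.8 and 45.7 after IR (difference in mean log2 ratio -0.28, exact permutation test, two-sided, p = 0.1, adjusted 0.55). The groups did not overlap in 2 of the 11 ratios. Such a separation, in either direction, was found for 34.2% of the 87153 ratios between any pair of tested miRNAs, so that the count of 2 is below the background and is not a result about the members.

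The balance of the arms differed between the hairpins. miR-181a-5p had 40.1 to 54.8 reads for each read of miR-181a-1-3p and 713 to 1216 for each read of miR-181a-2-3p. The 3p arm of the chromosome 13 gene was 17.8 to 23.3 times as abundant as that of the chromosome 3 gene, in sham and IR alike (difference in mean log2 ratio -0.01, exact permutation test, two-sided, p = 0.9). This is a ratio of 3p arms and not of transcripts, since the arms may differ in stability and capture. The count of the chromosome 13 arm also cannot be told apart from that of its antisense name, miR-3570. miR-181c was the exception to the usual dominance of 1 arm. Its 5p arm had only 2.43, 1.16 and 2.92 reads for each read of the 3p arm in sham replicates 1, 2 and 3 and 1.67, 3.05 and 2.02 in IR replicates 1, 2 and 3, with overlap (exact permutation test, two-sided, p = 0.9).

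In the miR-181a and miR-181c hairpins the 5p to 3p balance overlapped between the groups. For miR-181a-1 it was 49.2, 40.1 and 52.1 in sham replicates 1, 2 and 3 and 40.7, 54.8 and 41.4 in IR replicates 1, 2 and 3. Sham replicates 1 and 3 and IR replicate 2 were the 3 highest libraries in this ratio, in the ratio of miR-181a-5p to miR-181a-2-3p and in that of miR-181c-5p to miR-181c-3p. The pair of libraries with the lowest TMM factors, sham replicate 3 and IR replicate 2, is among them. Its part in the ratios was not tested. In the ratio of miR-181b-5p to miR-181b-1-3p the order was another, at 128, 107 and 178 in sham and 303, 334 and 167 after IR (difference in mean log2 ratio 0.93, exact permutation test, two-sided, p = 0.2, adjusted 0.55). The counts list the miR-181b 5p arm under a single name. Any reads of it from Mir181b2 are therefore included, and this ratio is not that of the Mir181b1 hairpin alone. The 3p arm named for the chromosome 3 gene, miR-181b-2-3p, had 5 reads or fewer in each library.

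**Figure D3:**
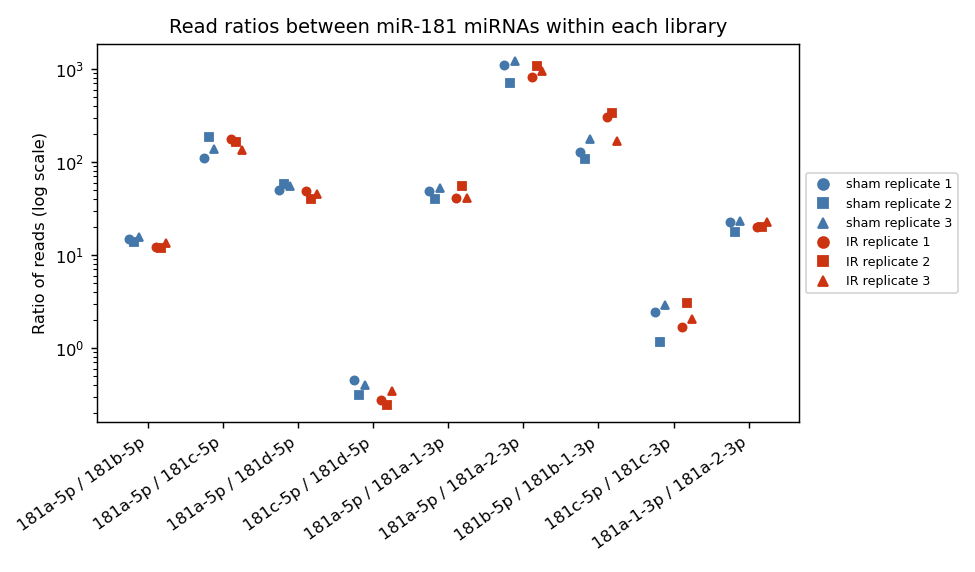
Ratio of reads between miR-181 miRNAs (vertical axis, log scale) in each of the 3 sham (blue) and 3 IR (red) libraries, with 9 of the 11 ratios shown; those to miR-181b-2-3p and miR-181d-3p, which had 0 to 5 reads in a library, are left out. The groups stand apart in the ratio of miR-181a-5p to miR-181b-5p and to miR-181d-5p and overlap in the others, and miR-181c has the lowest ratio of 5p to 3p.

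Summed over its 10 members, the family stood at 13717, 9875 and 15383 normalized CPM in sham replicates 1, 2 and 3 and at 8528, 9684 and 9002 in IR replicates 1, 2 and 3. The highest IR library was just below the lowest sham library. The mean was 12991 ± 2825 over the sham and 9071 ± 581 over the IR libraries (SD), 1.43-fold lower, a log2 ratio of -0.52 that became -0.68 without sham replicate 2 and -0.38 without sham replicate 3. No p is given for this sum over members. In whole lung, fewer cells that hold miR-181 and less miR-181 per cell cannot be told apart.

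Of the 12 marker miRNAs of blood cells, 1 was called lower after IR by the QL test (2.63% of all tested miRNAs were lower). All 12 had a log2 fold change below 0, as did 51.2% of all tested miRNAs. Several of the 12 are arms of the same hairpin, so that they are not independent of each other. Among the 4 of lymphocytes miR-150-5p, the abundant miRNA of mature lymphocytes, fell from a sham mean of 1454 ± 67.0 to an IR mean of 855 ± 139 normalized CPM (SD over 3 libraries; log2 fold change -0.77, edgeR QL adjusted p = 0.0229). The summed level of this list was 1693 to 1766 in sham and 972 to 1163 after IR, without overlap (16.7% of single tested miRNAs were separated in this direction). This sum is mostly miR-150-5p (1454 of a sham mean of 1721), and miR-150-3p, miR-342-3p and miR-342-5p each overlapped between the groups. The call of miR-150-5p was lost without sham replicate 3 and without IR replicate 3, in fits that called 21 of 420 and 2 of 410 miRNAs in either direction. miR-342-3p, also typical of lymphocytes, was at -0.13 without passing. The 4 miRNAs of myeloid cells and all leukocytes (miR-223 and miR-142, both arms) were at a median of -0.70, with 0 of 4 called by the QL test. Their sum was 1812 to 3046 in sham and 1315 to 1645 after IR. In 6 of the alternatives 1 of the 4 was lower. In the fit without sham replicate 1, which is among the 6, 44 of 450 miRNAs were called in either direction. In the others 2.63% to 5.81% of all tested miRNAs were lower. The 4 erythroid miRNAs, among them miR-451-5p at -0.20, were also all below 0, with 0 called by the QL test. But their sums overlapped, at 1233 to 4048 in sham and 1493 to 2155 after IR. Without sham replicate 1, 3 of the 4 were lower, in the fit that called 44 of 450 miRNAs in either direction. The part of these cells in the level of miR-181 was not tested.

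Of the lung's fixed cells, the lists for endothelium, epithelium and smooth muscle held no miRNA called lower. The 3 endothelial miRNAs of the miR-126 locus had a median log2 fold change of -0.01, with miR-126a-3p at -0.03, and their sum was 88121 to 111275 in sham and 83214 to 105486 after IR. The 5 epithelial miRNAs of the miR-200 family had a median of 0.28, from 0.00 for miR-141-3p to 0.55 for miR-200b-3p, and a sum of 12889 to 15882 in sham and 18672 to 19222 after IR, with 0 called by the QL test. The smooth muscle miRNAs miR-143-3p and miR-145-5p were at -0.01 and 0.04. The miR-199a and miR-214 miRNAs, known from fibroblasts and other mesenchymal cells, were on no list and were named after their values were seen. Of these miR-199a-3p fell from a sham mean of 1724 ± 157 to an IR mean of 1095 ± 127 normalized CPM (SD over 3 libraries; log2 fold change -0.65, edgeR QL adjusted p = 0.0229), while miR-214-3p (-0.73) and miR-199a-5p (-0.42) did not pass. In all 3 every IR library was below every sham library. Of all tested miRNAs, 16.7% were separated in this way and 2.63% were called lower by the QL test. The part of these miRNAs in the level of miR-181 was not tested.

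**Figure D4:**
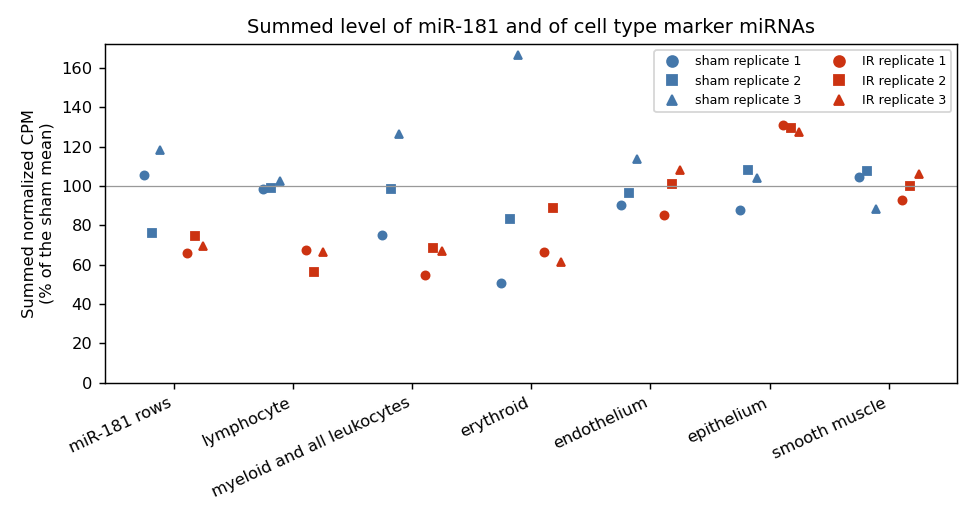
Summed normalized CPM of the 10 miR-181 miRNAs and of 6 marker lists in each library, as a percentage of the mean of the 3 sham libraries (vertical axis, starting at 0); blue is sham, red is IR and the marker shape is the replicate. The IR libraries lie below all sham libraries for miR-181, lymphocytes and leukocytes, above them for epithelium, and overlap them for the other lists. The lymphocyte sum is mostly miR-150-5p.

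Other miRNAs that act beside miR-181 in lymphoid cells included some that fell after IR. Of the 8 tested miRNAs of thymocyte and lymphoid development, 4 were lower (2.63% of all tested miRNAs were), 0 were higher and 4 did not pass, with a median log2 fold change of -0.75, beside the -0.01 of all tested miRNAs. The list shares miR-150-5p, miR-146a-5p, miR-155-5p and miR-223-3p with the other lists. Like them, it was chosen with earlier results of these data known, so that its share of lower miRNAs is not a test of lymphoid cells. The 4 lower were miR-150-5p, miR-92a-3p of the cluster that also holds miR-17 (-0.73), miR-146a-5p (-0.85) and miR-128-3p (-1.17), with edgeR QL adjusted p of 0.0203 to 0.0247. From the same cluster miR-17-5p (-0.72) and miR-20a-5p (-0.73) did not pass, nor did myeloid miR-223-3p (-0.78), and miR-155-5p of activated lymphocytes and macrophages was at 0.24. The number lower was 1 without sham replicate 3 and without IR replicate 1, and 0 without IR replicate 3. These fits called 21 of 420, 24 of 444 and 2 of 410 miRNAs in either direction.

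Of the 6 NF-κB-linked miRNAs, 1 was lower (2.63% of all tested miRNAs were), 0 were higher and 5 did not pass, with a median of 0.26. miR-146a-5p, which represses adaptors of the pathway and is induced by it, fell from a sham mean of 1492 ± 362 to an IR mean of 830 ± 35.4 normalized CPM (SD over 3 libraries). Its call was lost without sham replicate 3, where 21 of 420 miRNAs were called in either direction. It was also lost without IR replicates 1, 2 and 3, where 24 of 444, 17 of 436 and 2 of 410 were called. The related miR-146b-5p was at 0.29, miR-10a-5p, known from endothelium, at 0.44 and miR-31a-5p at 0.57, none past the test. The abundant miR-21-5p was at -0.69 without passing.

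The 5 tested miRNAs whose pattern over the 6 libraries was most like that of miR-181a-5p were found by the root mean square difference in log2(normalized CPM + 1) after the mean of each miRNA was subtracted. They were miR-16-3p, the minor arm of miR-16 (0.11), miR-181b-5p (0.14), miR-98-5p of the let-7 family (0.14), miR-92a-3p (0.16) and miR-339-5p (0.17), where the median over the 417 other tested miRNAs was 0.43. miR-16-3p had a mean of only 2.08 ± 0.637 in the sham and 1.01 ± 0.364 in the IR libraries (normalized CPM, SD), a level at which the added 1 compresses differences. Among the family's own members miR-181d-5p came 7th and miR-181a-1-3p 13th in this order, while miR-181c-5p was 53rd, miR-181a-2-3p 67th, miR-181c-3p 187th and miR-181b-1-3p 194th. Of the 5 nearest miRNAs, 4 were also among the nearest 5 when libraries were scaled by their totals alone.

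The direction of the 8 tested members held in every setting tried, and single calls appeared in some. Over 127 fits of a single member under another scaling, filter, test or set of libraries, all log2 fold changes were below 0. When miRNAs with few reads were kept, 9 of the 10 members were below 0. All these fits reuse the same libraries, so that they are not independent of each other or of the reported fit. DESeq2's Wald test called miR-181a-1-3p (adjusted p = 0.0470, range over 16 alternatives 0.0470 to 0.245) and miR-181c-3p (adjusted p = 0.0370, range 0.0370 to 0.218) lower, where 26 of 505 miRNAs were lower (5.15%). edgeR's likelihood ratio test called miR-181b-1-3p lower (adjusted p = 0.0153), where 24 of 418 were lower (5.74%; range of its adjusted p over 15 alternatives 0.0153 to 0.199). With libraries scaled by their totals without miR-21-5p, miR-181a-5p was called lower (log2 fold change -0.61, edgeR QL adjusted p = 0.0455), where 24 of 413 were lower (5.81%). At 0 members called, the share of miRNAs lower was 2.39% with RLE scaling, 2.63% with library totals, 1.73% without a filter on reads, 2.05% with at least 10 reads in every library, 1.67% with limma-voom and 2.87% with limma-trend. Leaving out 1 library called members only without sham replicate 2, and then miR-181a-5p and miR-181c-5p, in a fit that called 17 of 420 miRNAs lower (4.05%).

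**Figure D5:**
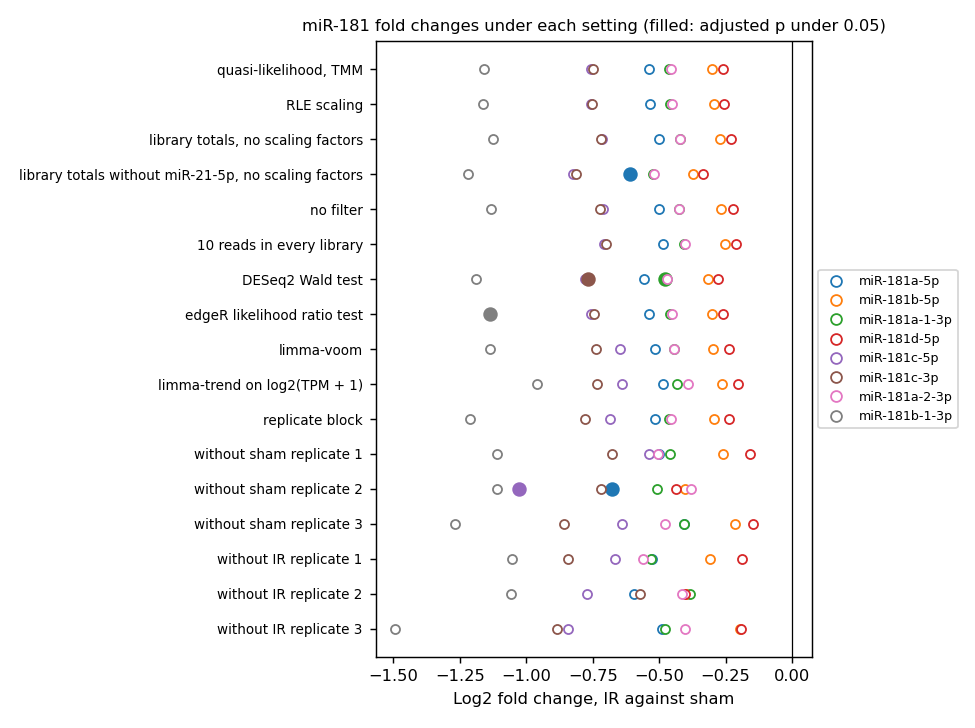
Difference in log2 level, IR minus sham (horizontal axis), of the 8 tested miR-181 miRNAs, 1 colour each, under the reported fit (top row) and 16 alternatives; filled points have an adjusted p under 0.05 and open points do not. All points lie left of 0, and the 6 filled points fall in 4 of the settings.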

How the data were processed

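Small RNA of rat lung from 3 IR and 3 sham samples was sequenced, 1 library each. The authors deposited whole read counts per miRNA name and, beside them, TPM values, which equal the counts scaled to 1000000 listed miRNA reads in each library with no term for length. The submitters' processing notes name Bowtie. The sources used here do not give the genome build, annotation or counting rule. Groups follow the sample titles. The number of value columns with no sample was 0.

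Tests on the counts ran in R 4.3.3, with edgeR 4.0.16 as the main tool (filterByExpr, minimum count 10 and minimum total 15, TMM, quasi-likelihood or QL test, Benjamini-Hochberg adjustment over 418 miRNAs, threshold 0.05). limma 3.58.1 and DESeq2 1.42.0 gave alternatives, and figures used Python 3.11.15 and matplotlib 3.10.9. A standard error is the log2 fold change divided by the square root of F. Read ratios had 0.5 reads added to both terms and were compared by an exact permutation test over 20 assignments. The quasi-likelihood script was tested on simulated data.

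The members and lists were chosen with earlier results of these data known. Named miRNAs are all members, the listed miRNAs that passed the test or were among the 4 most abundant of a list, and the 5 nearest in pattern to miR-181a-5p. Not every miRNA that this rule allows is named.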

Additional observations from a re-analysis of the deposited data

How the results depend on the processing

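Other settings changed how many miR-181 members passed the test and not their direction. The count of members called, 0 of 8 with edgeR's quasi-likelihood test, was 1 with library totals without miR-21-5p, 2 with DESeq2, 1 with edgeR's likelihood ratio test and 5 at an unadjusted p under 0.05, and it ranged from 0 to 2 with 1 library left out. Summed to a single miRNA, the family was not called. With 87.9% to 89.9% of its reads from miR-181a-5p, this sum is not a check apart from that member. Of all miRNAs, 44 were called, against 26 with at least 10 reads in every library, 69 with DESeq2, 110 at an unadjusted p, and 2 to 57 with 1 library left out. Fewer miRNAs (341) were tested under the stricter filter, and the cause of the other changes was not tested. With the replicate number as a block, 0 members and 0 of all miRNAs were called by edgeR's quasi-likelihood test, with 4 and 84 at an unadjusted p under 0.05. The deviations of same-numbered libraries from their group means correlated at -0.39 to -0.18, and the labels do not say that a number marks a shared animal or day, so that the samples share only a number. The difference in mean log2 ratio (IR minus sham) changed sign when 1 library was left out for miR-181a-5p to miR-181c-5p (range -0.0089 to 0.36), miR-181a-5p to miR-181a-1-3p (-0.19 to 0.026), miR-181a-5p to miR-181a-2-3p (-0.30 to 0.089), miR-181c-5p to miR-181c-3p (-0.29 to 0.38), miR-181d-5p to miR-181d-3p (-0.75 to 0.15) and miR-181a-1-3p to miR-181a-2-3p (-0.13 to 0.063). Other scalings moved the median of all tested miRNAs by less than 0.1 on the log2 scale. Depth limits miR-181a-2-3p, miR-181b-1-3p, miR-181b-2-3p and miR-181d-3p, and not miR-181a-5p.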
